A study of Homo sapiens with 33 samples.

Results

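The neutrophil-attracting CXC chemokines measured here were CXCL8, CXCL1, CXCL2, CXCL3 and CXCL5, taken by gene name with every probe set of each gene. They made up 5 of the 19775 genes with a probe set of their own on the array and 10 of its 54613 probe sets, and no member probe set was shared with another gene. CXCL8 had 2 probe sets, CXCL1 1, CXCL2 3, CXCL3 1 and CXCL5 3. Transcripts were measured in THP-1 cells, an established human monocytic leukaemia line, on 33 Affymetrix HG-U133 Plus 2 arrays, with 1 culture well per array. At 40 h there were 6 wells with the 0.1% ethanol vehicle and 5 wells with all-trans retinoic acid (RA, 20 nM) for 40 h. Another 5 wells held tumor necrosis factor (TNF, 5 ng/ml) for 24 h, and 5 held RA for 40 h with TNF added for the last 24 h. The RA time course had 2 wells at 2 h, 2 at 6 h and 3 at 16 h, with 5 vehicle wells harvested at 16 h per their treatment protocols. The titles of these 5 and of 3 of the 40 h vehicle wells say 0 h instead, and the protocols were followed here. No group carried a genetic change. All wells came from the same line, so p-values measure the spread between wells of these cells and not between people.

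These chemokines are small secreted proteins that share a glutamate-leucine-arginine motif before the CXC cysteines and draw neutrophils by acting on the receptors CXCR1 and CXCR2. In monocytes and macrophages their genes are switched on by inflammatory signals such as TNF, through NF-kB together with AP-1 and C/EBP factors, and their transcripts carry AU-rich elements that shorten their life. RA, the active form of vitamin A, binds nuclear receptors and drives myeloid leukaemia cells towards more mature forms.

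The 5 genes lie near each other on chromosome 4 (GRCh38.p14), CXCL8 at chr4:73740569-73743716, CXCL1 at chr4:73869393-73871308, CXCL5 at chr4:73995642-73998677, CXCL3 at chr4:74036589-74038689 and CXCL2 at chr4:74097040-74099195. The 200 bases before each start are shown because all 5 members share an NF-kB-type sequence there. They are from RefSeq on GRCh38.p14, read 5' to 3' on the gene's own strand: chr4:73740369-73740568 (+) for CXCL8, chr4:73869193-73869392 (+) for CXCL1, chr4:74099196-74099395 (-) for CXCL2, chr4:74038690-74038889 (-) for CXCL3 and chr4:73998678-73998877 (-) for CXCL5. Capitals mark every match to GGNNTTTCC on either strand.
CXCL8: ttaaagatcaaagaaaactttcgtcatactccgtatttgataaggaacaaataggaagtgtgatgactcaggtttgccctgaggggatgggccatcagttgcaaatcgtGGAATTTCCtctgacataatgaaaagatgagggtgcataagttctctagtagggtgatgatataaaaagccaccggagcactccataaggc
CXCL1: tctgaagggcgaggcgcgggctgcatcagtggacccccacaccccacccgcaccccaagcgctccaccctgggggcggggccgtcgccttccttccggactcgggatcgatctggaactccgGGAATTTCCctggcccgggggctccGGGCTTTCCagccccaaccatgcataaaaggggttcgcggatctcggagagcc
CXCL2: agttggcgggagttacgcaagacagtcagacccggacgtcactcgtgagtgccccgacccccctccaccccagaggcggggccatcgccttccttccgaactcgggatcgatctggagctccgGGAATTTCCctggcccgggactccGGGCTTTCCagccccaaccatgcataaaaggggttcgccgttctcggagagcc
CXCL3: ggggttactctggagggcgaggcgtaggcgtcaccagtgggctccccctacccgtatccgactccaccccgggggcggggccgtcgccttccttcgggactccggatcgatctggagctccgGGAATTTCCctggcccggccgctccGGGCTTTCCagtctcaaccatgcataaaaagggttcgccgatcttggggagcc
CXCL5: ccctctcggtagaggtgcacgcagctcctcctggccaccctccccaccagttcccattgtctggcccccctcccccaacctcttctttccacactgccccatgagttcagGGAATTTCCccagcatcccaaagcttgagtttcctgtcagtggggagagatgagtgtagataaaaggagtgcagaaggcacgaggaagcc

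GGAATTTCC, searched on both strands, was present in all 5 windows, with its first base between 77 and 91 bases before the start. Of 35116 promoter windows of this length, belonging to 27305 genes, 0.316% held it. The looser GGNNTTTCC, which includes it, was found in 4.49%, and CXCL1, CXCL2 and CXCL3 each had a second match, GGGCTTTCC, with its first base 53 bases before the start. Exact matches to the AP-1 sequence TGANTCA (5.38% of windows) and to the TATA box TATAAA (8.59%) were found in CXCL8 and in no other member. Shortly before the start, the windows of CXCL1, CXCL2 and CXCL3 hold CATAAA and that of CXCL5 holds GATAAA. Each differs from TATAAA in the first letter only. An exact match to the C/EBP-type sequence TTGCNNAA (6.91%) was found in CXCL2 alone. The CXCL8 window holds TTGCAAAT shortly before its GGAATTTCC, which differs from that pattern in the last letter only. Direct repeats of AGNTCA, a narrow form of the element of RA receptors, were not in any of the 5 windows. This held with either 5 free bases between the copies (0.057% of all windows) or 2 (0.0256%). Because these patterns are so rare, their absence from 5 windows does not show that the promoters lack an element of RA receptors. In pairwise global alignments of the windows, with gaps allowed, CXCL1, CXCL2 and CXCL3 had 80% to 84% of the 200 bases in common. CXCL8 had 48% to 51% in common with each of the others. No value for unrelated windows was computed, so 48% to 51% is not read as a likeness. A match to these letters describes the sequence and was not tested for binding.

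Levels are given as the signal of the array software in units, recovered from the deposited log2 values, on a scale where the median probe set of an array lay between 18.9 and 45.2 units. Levels of different probe sets are not compared, because each binds its target differently. Replicate arrays correlated at r = 0.841 to 0.958 across probe sets. The arrays fall into 2 runs of record numbers, called array set 1 (12 arrays, 3 of each 40 h group) and array set 2 (21 arrays, among them all arrays of the time course). The 3'/5' ratio of ACTB, a sign of RNA integrity, was 1.31 ± 0.325 (log2, SD, n = 12) in set 1 and 0.507 ± 0.284 (n = 21) in set 2. On the monocyte and macrophage list 7 of 8 markers lay above the array median on most arrays. For neutrophil markers it was 1 of 6 (CSF3R) and for lymphocyte markers 2 of 5. For erythroid and megakaryocyte markers it was 2 of 5, and for epithelial and fibroblast markers 3 of 7. The first list includes MPO and ELANE, granule enzymes of immature myeloid cells. Both are counted among the 7, MPO with 18 of the 33 arrays above the median.

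CXCL8 was the member that responded most, and it was highest in the wells that received RA and TNF together. On its brighter probe set, 202859_x_at, the 6 vehicle wells at 40 h ran from 104 units through a median of 148 to 301. The 5 wells with RA alone gave 208, 260, 214, 512 and 906 units. The 5 wells with TNF alone gave 895, 747, 779, 462 and 431. With RA and TNF together the wells gave 5484, 5662, 6286, 4551 and 4991 units. Every combined well was above every other well, every TNF well was above every vehicle well, and the RA wells overlapped both vehicle and TNF. The group means were 177 ± 79.9 for vehicle, 420 ± 299 for RA, 663 ± 205 for TNF and 5395 ± 661 for the combination (SD, n = 6, 5, 5 and 5). In bulk wells a change in the number of cells that make a transcript cannot be told apart from a change in the amount per cell.

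**Figure D1:**
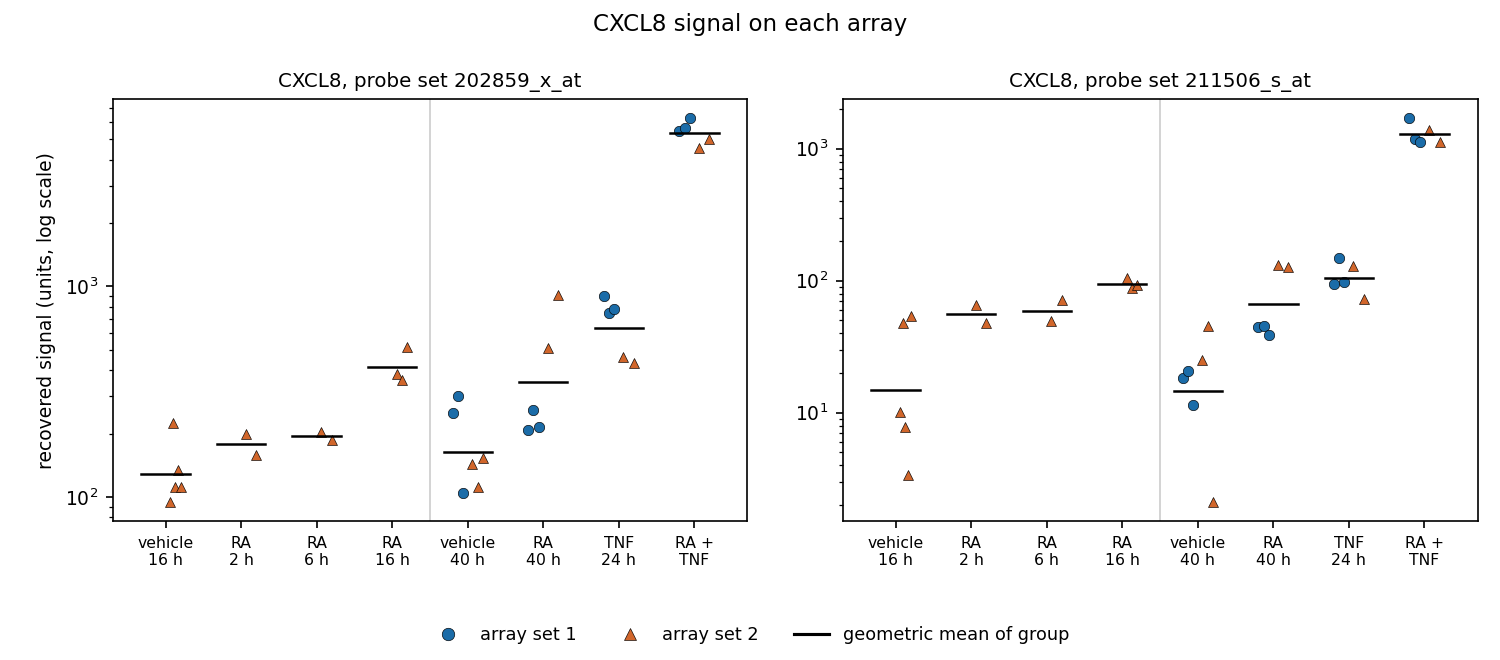
Recovered signal (units, log scale) of the CXCL8 probe sets on every array, by group, with circles for array set 1, triangles for array set 2 and lines at the geometric mean of a group. The 5 wells with RA plus TNF lie between 4551 and 6286 units on 202859_x_at, above all other wells, and the RA wells at 40 h split by array set.

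The fit in limma over all 27307 probe sets that passed the filter on low values gave a TNF effect on 202859_x_at of 2.00 ± 0.34 (log2, SE; 3.99-fold; adjusted p = 9.39e-05). RA added to TNF raised it by a further 3.14 ± 0.35 (8.82-fold; adjusted p = 8.64e-08), and the combination stood 5.14 ± 0.34 above vehicle (35.2-fold; adjusted p = 1.73e-13). RA alone gave 1.13 ± 0.34 (2.18-fold), which did not pass at an adjusted p of 0.0671. The RA effect passed in 6 of 11 other settings, and over the 11 it ran from 0.12 in array set 1 alone to 2.50 in set 2 alone. The combination against RA alone gave 4.01 ± 0.35 (16.1-fold; adjusted p = 4.18e-10).

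The dimmer CXCL8 probe set, 211506_s_at, showed the same order of the combination, TNF and vehicle. Its vehicle wells at 40 h ran from 2.1 units through a median of 19.5 to 45.4, and 1 of the 6 was above its array median. The RA wells gave 44.8, 45.3, 38.8, 131 and 126 units, the TNF wells 94.1, 149, 97.9, 129 and 72.7, and the combined wells 1703, 1184, 1132, 1392 and 1122. The combined wells were above all others here too, and the TNF wells above all vehicle wells. Because the vehicle wells lay mostly below the array median, this probe set passed the filter through its treated wells, and its differences from vehicle start from a level near the floor of the arrays. They are given as a description and are not counted among the calls of the members.

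For 211506_s_at the effect of TNF was 2.91 ± 0.49 (log2, SE; adjusted p = 9.68e-05 in limma), of RA added to TNF 3.68 ± 0.51 (12.8-fold; adjusted p = 5.47e-06), and of the combination against vehicle 6.59 ± 0.49 (adjusted p = 3.57e-12). Its RA effect alone was 2.23 ± 0.49 (adjusted p = 0.00505). The combination against RA gave 4.36 ± 0.51 (adjusted p = 1.62e-07). With the array set effect removed, the log2 values of the CXCL8 probe sets correlated at r = 0.929 over the 21 arrays at 40 h. Both probe sets were read in the same wells and treatments. The log2 gap between them was 3.47 ± 1.63 (SD, n = 6) in vehicle and 2.06 ± 0.35 (n = 5) in the combination, so the fold changes of the dimmer probe set were larger.

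CXCL1, which acts mainly on CXCR2, lay on both sides of the array median in vehicle, RA and TNF wells and was higher in the combined wells. On its probe set, 204470_at, the vehicle wells at 40 h ran from 18.2 units through a median of 28 to 65.8. The RA wells gave 16.3, 69.3, 38.9, 46.6 and 48.4 units, and the TNF wells 42.7, 41.2, 3.2, 31.5 and 9.7. The combined wells gave 84.8, 83.4, 70.7, 111 and 104. By signal, all 5 combined wells were above every vehicle, RA and TNF well. Relative to the array median, the scale of the fits, 1 combined well fell below the highest RA well. The median percentile of this probe set among all probe sets of an array was 53.6.

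In the limma fit, CXCL1 with RA and TNF was 2.41 ± 0.58 above TNF alone (log2, SE; 5.3-fold; adjusted p = 0.00754) and 1.65 ± 0.56 above vehicle (3.13-fold; adjusted p = 0.0405). The second of these lost its call under 6 of 10 other settings and without any 1 of 10 of the 11 arrays compared, with values of 1.51 to 1.84 when an array was left out. TNF alone gave -0.76 ± 0.56 (adjusted p = 0.507), RA alone 0.39 ± 0.56 (adjusted p = 0.898) and the combination against RA 1.25 ± 0.58 (adjusted p = 0.195). TNF well 3, at 3.2 units, was the lowest CXCL1 value on any array. Without it the TNF effect was -0.15 and the combination against TNF 1.78 (adjusted p = 0.03), and with a pseudocount of 16 units and all wells the latter was 1.52 (adjusted p = 0.00157). Over the 21 arrays at 40 h, with the array set effect removed, CXCL1 correlated with the CXCL8 probe sets at r = 0.511 and 0.498.

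Of 202859_x_at and CXCL1, the 2 member probe sets whose vehicle wells alone were above the filter, 1 passed for TNF against vehicle, where 7.79% of all 27307 probe sets did. Both passed for the combination against TNF (6.08%) and against vehicle (14.9%), 1 for the combination against RA (9.54%) and 0 for RA alone (2.86%), where 1 had an unadjusted p under 0.05 in limma. All of these were rises. Among all probe sets, calls of a rise came to 4.8% for TNF, 3.4% for the combination against TNF and 2.06% for RA, and calls of a fall to 2.98%, 2.68% and 0.798%. The median over all probe sets tested was 0.02 (log2) for TNF against vehicle, 0.03 for the combination against TNF and 0.02 for RA.

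The interaction asks whether RA raised a transcript more in TNF-treated wells than in wells without TNF, as the difference between those log2 effects. It was 2.02 ± 0.49 for CXCL8 on 202859_x_at (log2, SE; a 4.04-fold larger RA effect; adjusted p = 0.0678 in limma), 1.45 ± 0.71 on 211506_s_at (adjusted p = 0.602) and 2.01 ± 0.80 for CXCL1 (adjusted p = 0.451). None of the 3 passed after adjustment, where 0.249% of all probe sets did (0.143% above 0 and 0.106% below). Both 202859_x_at and CXCL1 had an unadjusted p under 0.05, as did 2256 of the 27307 probe sets. The value for 202859_x_at passed in 6 of 11 other settings, and over the 11 it ran from 0.90 in array set 2 alone to 2.85 in set 1 alone. In 5 of the 6 that passed it lay between 1.92 and 2.05, among them the recovered signal without centring on the array median (1.98, adjusted p = 0.0245). These values are differences of log2 effects, so they compare fold changes and not amounts.

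The RA effect on CXCL8 was larger in array set 2 than in set 1, by a difference that just missed the threshold. On 202859_x_at it was 0.12 ± 0.32 (log2, SE; adjusted p = 0.97) in set 1, where RA wells gave 208, 260 and 214 units and vehicle wells 250, 301 and 104. In set 2 it was 2.50 ± 0.26 (adjusted p = 6.04e-06), from RA wells at 512 and 906 units and vehicle wells at 144, 112 and 153. The test of the difference gave 2.38 ± 0.48 (adjusted p = 0.0519 in limma), where 0.0293% of all probe sets passed, and it passed in 4 of the 6 other settings. On 211506_s_at the effect was 1.33 ± 0.40 in set 1 (adjusted p = 0.136) and 3.43 ± 0.80 in set 2 (adjusted p = 0.02), with a difference of 2.10 ± 0.94 (adjusted p = 0.773). The ACTB ratio given above differed between these sets, and its part in this difference was not tested. By array set the interaction was 2.85 ± 0.45 in set 1 (adjusted p = 0.00297) and 0.90 ± 0.39 in set 2 (adjusted p = 0.804) for 202859_x_at, and 2.36 ± 0.57 (adjusted p = 0.0483) and 0.24 ± 1.19 (adjusted p = 0.983) for 211506_s_at.

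For the effects of TNF and of RA under TNF on CXCL8 the array sets gave these values. For 202859_x_at, TNF gave 2.04 ± 0.32 in set 1 and 1.80 ± 0.26 in set 2, and RA added to TNF 2.97 ± 0.32 and 3.39 ± 0.29 (log2, SE). CXCL1 rose with RA added to TNF by 2.60 ± 0.66 in set 2 (adjusted p = 0.0379), and its 2.28 ± 0.84 in set 1 did not pass (adjusted p = 0.141). No member passed the test of a difference between sets for the TNF effect or for RA under TNF (0 of 3 with an unadjusted p under 0.05 in each). Nor did any probe set on the array (0% and 0% in limma, with 916 and 2174 of 27307 at an unadjusted p under 0.05). In set 1 the ACTB ratio was 0.989 ± 0.0719 in the combined wells and 1.40 ± 0.0585 in the TNF wells (SD, n = 3 each), and in set 2 it was 0.494 ± 0.123 and 0.532 ± 0.368 (n = 2 each). Its part in the CXCL8 difference was not tested.

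**Figure D2:**
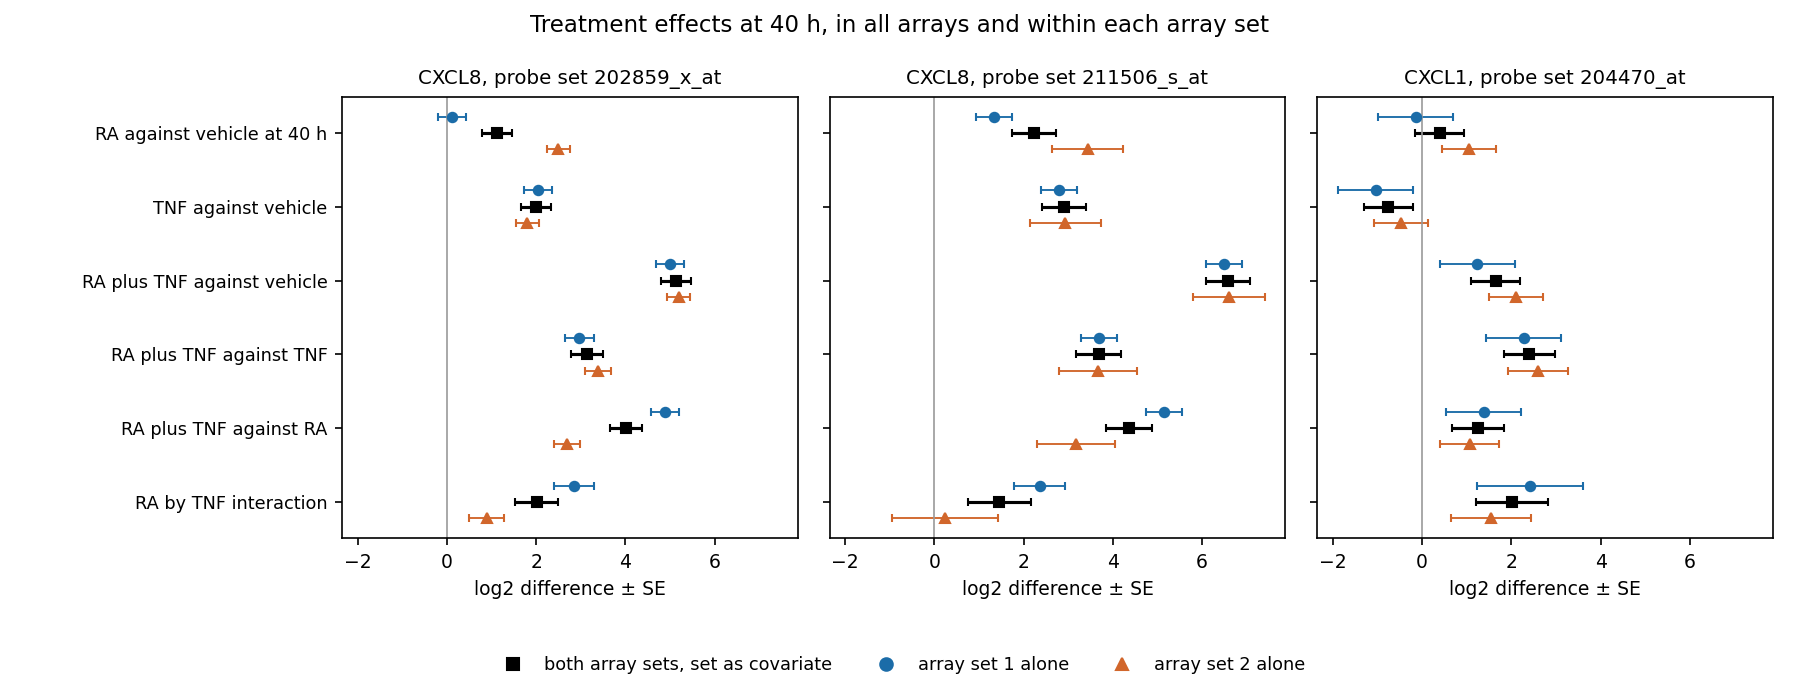
Log2 differences with SE for the CXCL8 and CXCL1 probe sets that passed the filter, in 6 comparisons at 40 h, fitted on both array sets together (squares) and in array set 1 (circles) or set 2 (triangles) alone. For 202859_x_at the RA effect is 0.12 in set 1 and 2.50 in set 2, while RA plus TNF against TNF is 2.97 and 3.39.

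In the RA time course CXCL8 was higher from 16 h, and CXCL1 passed at no time point. The 8 vehicle arrays of set 2 served as the reference, 5 harvested at 16 h and 3 at 40 h. On 202859_x_at the vehicle wells at 16 h gave 94.4, 225, 112, 134 and 112 units. RA gave 198 and 159 units at 2 h, 203 and 186 at 6 h, 382, 358 and 513 at 16 h, and 512 and 906 at 40 h. The wells at 2 h lay within the vehicle range, 1 of the 2 at 6 h was above it on the log2 scale, and all wells at 16 h and 40 h were above it.

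The limma differences for 202859_x_at were 0.77 ± 0.32 at 2 h (log2, SE; adjusted p = 0.249), 0.98 ± 0.32 at 6 h (adjusted p = 0.0681), 1.51 ± 0.27 at 16 h (2.85-fold; adjusted p = 0.000811) and 2.54 ± 0.32 at 40 h (5.8-fold; adjusted p = 3.48e-06). The median over all probe sets was itself shifted, by 0.33 and 0.38 at the first 2 times, -0.17 at 16 h and 0.14 at the last, and relative to that shift CXCL8 stood at 0.44, 0.61, 1.68 and 2.40. The 40 h value rests on the RA wells of array set 2, where RA raised CXCL8, and not on those of set 1, where it did not pass. The time points share their vehicle arrays. The ACTB 3'/5' ratio moved over these groups, at 0.224 ± 0.106 (log2, SD, n = 2) at 2 h, 0.212 ± 0.122 (n = 2) at 6 h, 0.773 ± 0.326 (n = 3) at 16 h and 0.527 ± 0.0728 (n = 2) at 40 h. In the vehicle wells of this set it was 0.434 ± 0.234 (n = 5) at 16 h and 0.724 ± 0.373 (n = 3) at 40 h. Array medians averaged 23.3 and 22.2 units at 2 h and 6 h, against 29.4 in the vehicle wells at 16 h. Their part in the CXCL8 values was not tested.

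On 211506_s_at the vehicle wells at 16 h gave 10.2, 48, 7.8, 3.4 and 54 units, and RA gave 65.9 and 47.6 at 2 h, 49.3 and 71.3 at 6 h, and 104, 88.5 and 92.3 at 16 h. Its differences were 2.31 ± 0.86 at 2 h (adjusted p = 0.226 in limma), 2.47 ± 0.86 at 6 h (adjusted p = 0.0873), 2.59 ± 0.73 at 16 h (adjusted p = 0.0385) and 3.34 ± 0.86 at 40 h (adjusted p = 0.0216). These too are a description, since its vehicle wells lay below the filter. The last 2 lost their calls with no intensity trend in the fit (adjusted p = 0.124 and 0.115). The 16 h call was also lost without any 1 of the 3 RA wells or of vehicle wells 1, 3 and 4 at 16 h (2.20 to 2.88), and the 40 h call without either RA well (2.94 to 3.62).

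CXCL1 under RA gave 15.6 and 16 units at 2 h, 40.5 and 15.6 at 6 h, and 38.5, 52.3 and 59.5 at 16 h, against 27.8, 32.3, 22.5, 13.9 and 56 in the vehicle wells at 16 h. Its values overlapped the vehicle range at 2 h, 6 h and 16 h. From the earliest to the latest time the differences were -0.43 ± 0.55, 0.32 ± 0.55, 0.74 ± 0.47 and 0.98 ± 0.55 (log2, SE; smallest adjusted p = 0.41 in limma). Of 202859_x_at and CXCL1, 0 passed at 2 h (0.571% of all probe sets did), 0 at 6 h (4.95%), 1 at 16 h (4.75%) and 1 at 40 h (3.51%), and at each time 1 of the 2, that of CXCL8, had an unadjusted p under 0.05.

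Ordered by group means relative to the array median, 202859_x_at ran from the combination through TNF, RA at 16 h, 40 h, 6 h and 2 h to vehicle at 40 h and 16 h. The combination did not overlap with TNF, the next group, and every other pair of neighbours overlapped. The 40 h groups here hold both array sets, while RA at 2 h, 6 h and 16 h is from set 2. Within set 2 the mean for RA at 40 h was 4.70 (log2 over the array median, n = 2). TNF stood at 4.00 (n = 2) and RA at 16 h at 3.68 (n = 3). The RA wells at 40 h were at 4.11 and 5.29 and the TNF wells at 4.09 and 3.91, so the nearest wells were almost equal. A difference between RA and TNF was not tested. For 211506_s_at the combination was again apart from TNF, and all later neighbours overlapped. For CXCL1 every pair of neighbours overlapped, from the combination down to TNF at the low end.

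CXCL2, CXCL3 and CXCL5, with 7 probe sets between them, stayed dim in all groups. CXCL2 and CXCL3 are close relatives of CXCL1, and CXCL5 is best known from epithelial cells and platelets. Of their 231 values over the 33 arrays, 23 were above the array median and 15 were at the lowest value of 1 unit. Their medians over all arrays ran from 2.6 to 17 units and their highest value was 86.7.

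On the CXCL2 probe set 230101_at, the highest of the 7 by its median, vehicle wells at 40 h had a mean of 16.5 ± 9.25 units, RA 23 ± 10.7, TNF 26.4 ± 10.6 and the combination 29.3 ± 18 (SD, n = 6, 5, 5 and 5). CXCL3 (207850_at) gave 9.18 ± 4.74, 27.3 ± 34.4, 20.7 ± 27.1 and 19 ± 23.5 units in the same order, with 1 well far above the rest in each treated group, at 86.7, 68.3 and 60.6. For CXCL5 (214974_x_at) the means were 13.2 ± 9.59, 16.4 ± 12.2, 16.7 ± 10.4 and 15.8 ± 17.9. All groups of these 3 probe sets overlapped at 40 h.

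All 7 dim probe sets were below the filter and took no part in the fits above. In limma without the filter none of the 7 passed in any of the 13 comparisons, and their smallest adjusted p was 0.326. At an unadjusted p under 0.05 there was 1 at 16 h of RA (CXCL5, 207852_at), 1 at 40 h (CXCL2, 209774_x_at) and 2 for the difference in RA effect between array sets. CXCL1, CXCL2 and CXCL3 are similar in sequence, and probe sets whose names end in x_at may bind related transcripts, so signal can be shared between them. A transcript this close to the floor may be present at a level that these arrays do not measure.

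**Figure D3:**
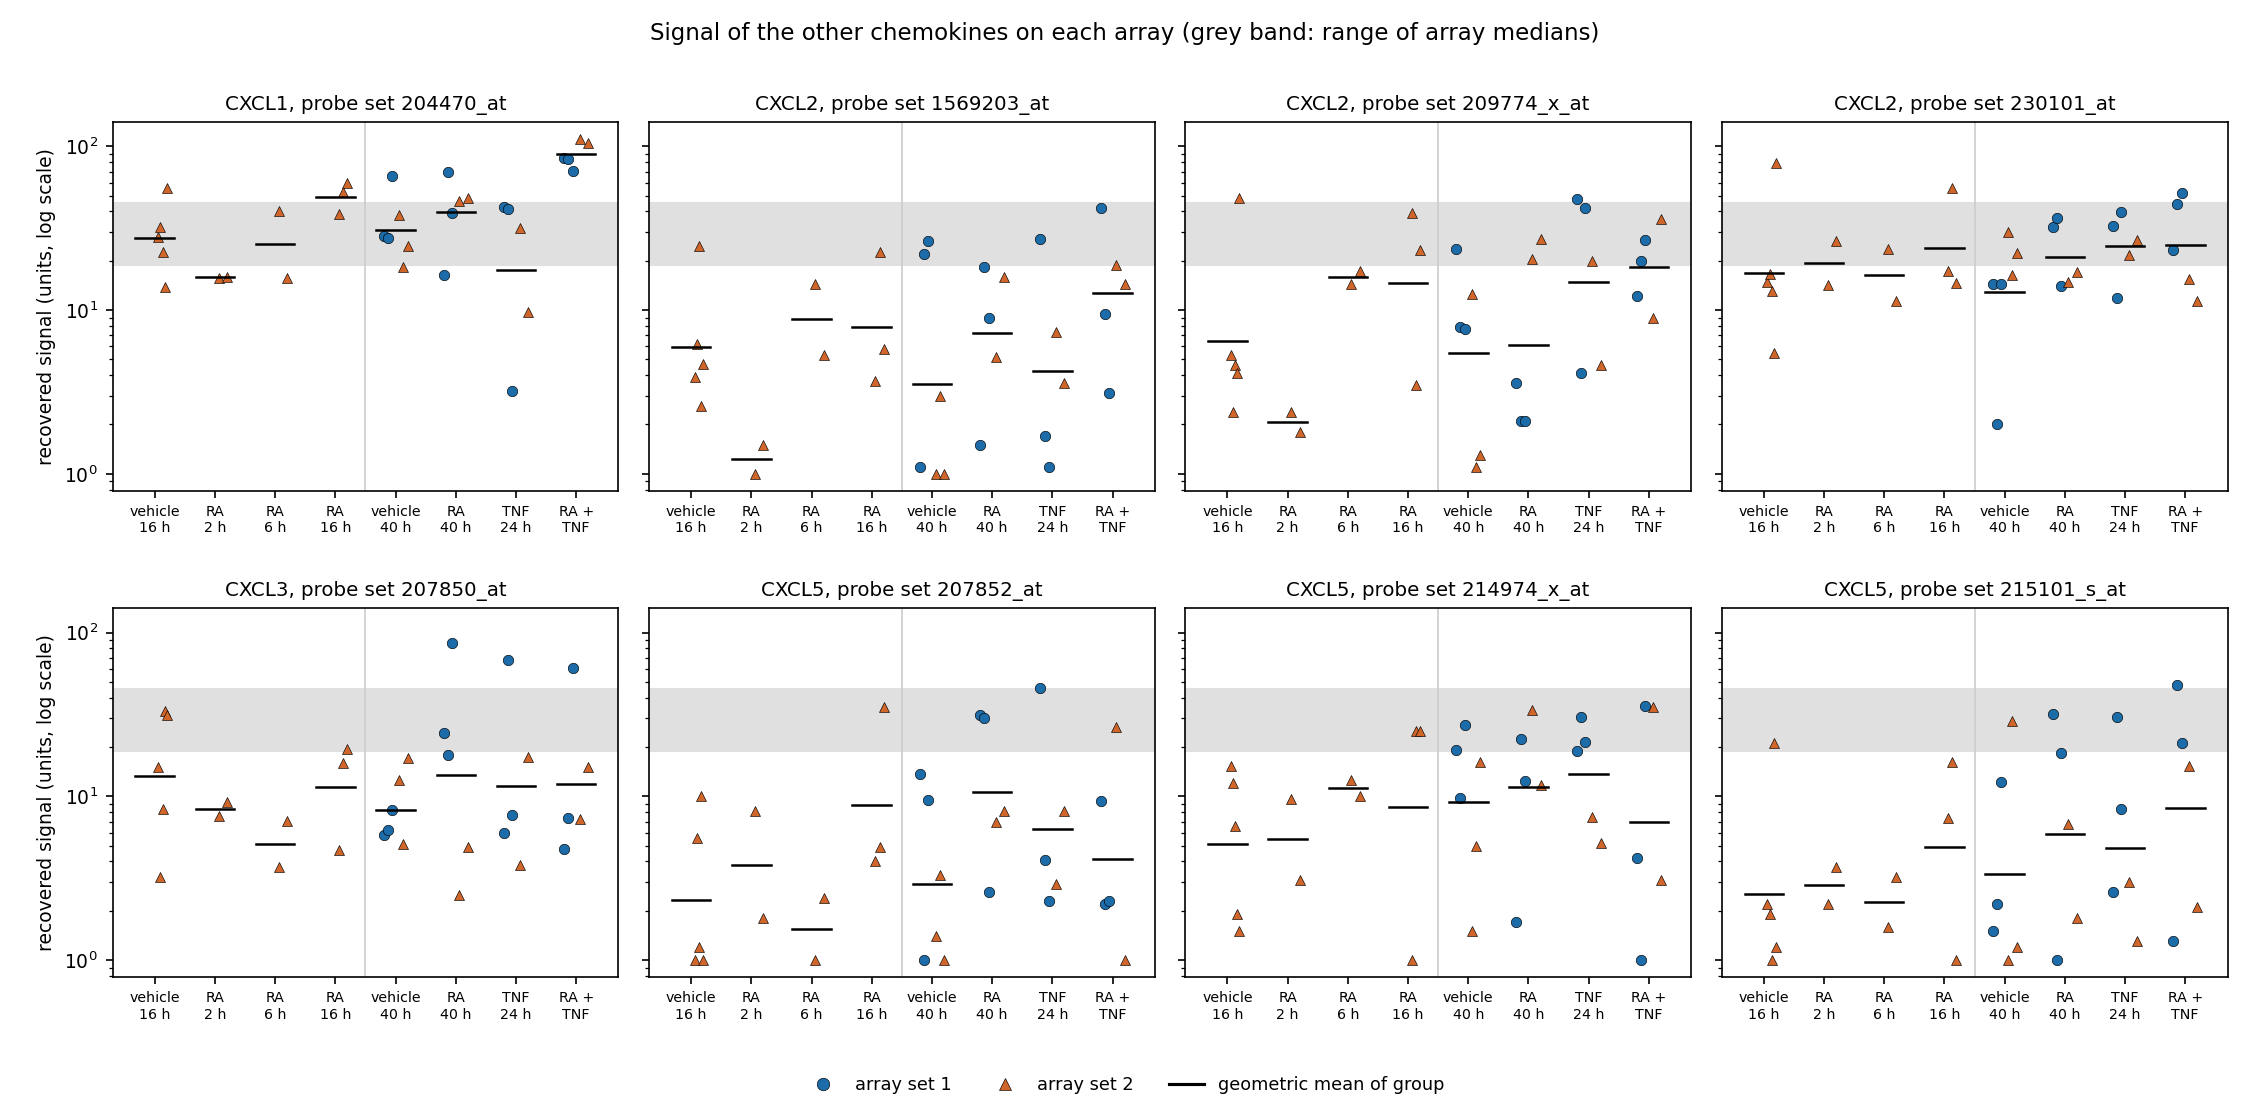
Recovered signal (units, log scale) of CXCL1 and of the 7 CXCL2, CXCL3 and CXCL5 probe sets on every array, with circles for array set 1, triangles for set 2, lines at geometric means and a grey band from 18.9 to 45.2 units, the range of array medians. CXCL1 lies above the band in all 5 wells with RA plus TNF, and the other 7 probe sets lie mostly in or below it in all groups.

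The other genes of the pathway are given from lists with 1 probe set per gene, the brightest. CXCL6 and PPBP, which also act on these receptors, were dim, CXCL6 with a median of 17.2 units. Of their receptors, CXCR1 was dim, with a median of 8.3 units, and so was the scavenging receptor ACKR1, while CXCR2 was bright. CXCR2 (207008_at) in vehicle wells at 40 h ran from 232 units through a median of 348 to 414. RA wells gave 245, 284, 252, 459 and 568 units, TNF wells 91.6, 38.7, 86.4, 218 and 153, and combined wells 119, 132, 53.3, 172 and 188. By signal, all TNF and all combined wells were below every vehicle and RA well, and relative to the array median 4 of 5 in each were below every vehicle well.

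CXCR2 fell with TNF by 1.57 ± 0.26 on the log2 scale (SE; adjusted p = 5.79e-05 in limma). In the combination it stood at -1.23 ± 0.26 against vehicle (adjusted p = 0.000707) and at -1.40 ± 0.27 against RA (adjusted p = 0.00041). RA added to TNF gave 0.34 ± 0.27 (adjusted p = 0.562) and RA alone 0.17 ± 0.26 (adjusted p = 0.908). Under TNF the receptor was lower and CXCL8 higher, and CXCR2 passed at no time of RA alone (smallest adjusted p = 0.194).

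**Figure D4:**
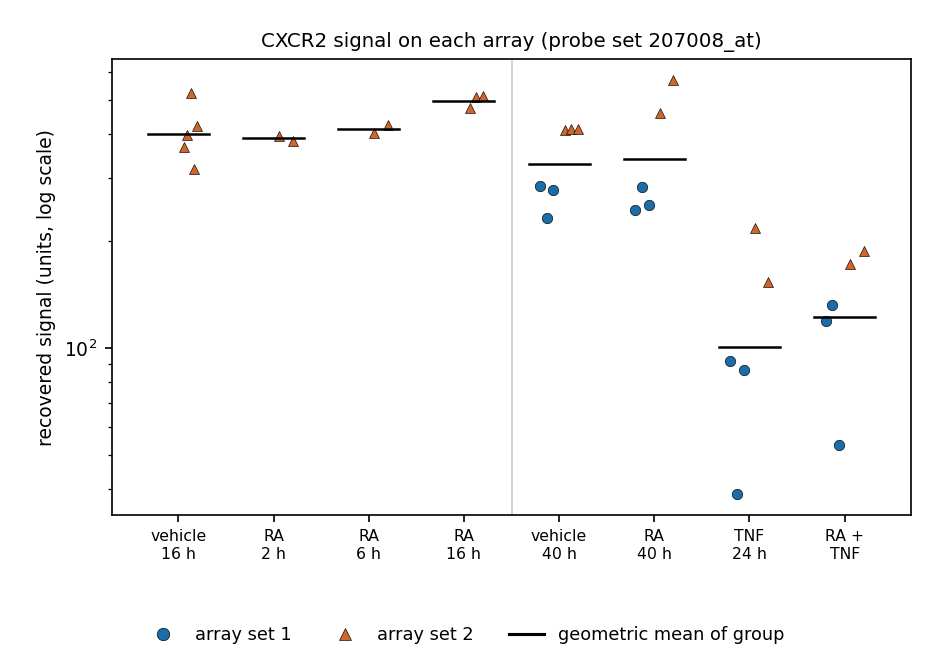
Recovered signal (units, log scale) of the receptor CXCR2 on every array by group, with circles for array set 1, triangles for set 2 and lines at geometric means. The 10 wells with TNF, alone or with RA, lie between 38.7 and 218 units, below the vehicle and RA wells at 40 h.

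Of 10 CXC chemokines that act on other receptors, 3 passed the filter. CXCL10 and CXCL11, ligands of CXCR3 known from interferon responses, rose with TNF by 7.49 ± 0.52 and 5.35 ± 0.64 (log2, SE; adjusted p = 3.55e-12 and 3.04e-07 in limma). Vehicle wells at 40 h averaged 14.1 ± 16.3 units for CXCL10 and 14.4 ± 12.5 for CXCL11 (SD, n = 6), so both rises start near the floor of the arrays. With RA added to TNF their differences were -1.41 ± 0.54 (adjusted p = 0.137) and -2.07 ± 0.67 (adjusted p = 0.061), which did not pass, where CXCL8 and CXCL1 rose. CXCL12, the third, had an interaction of -0.91 ± 0.72 (adjusted p = 0.828).

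Of 22 NF-kB, AP-1 and C/EBP genes, 20 were tested. With TNF 9 rose and 1, FOSL2, fell, with a list median of 0.52 (log2), and the rises included RELB (2.50 ± 0.23) and NFKBIA (2.98 ± 0.17), which encodes the inhibitor that holds NF-kB in the cytoplasm. With RA alone REL rose (0.66) and CEBPD (-0.56), FOS (-0.83), FOSL2 (-0.90) and NFKBIA (-0.92) fell. RA added to TNF raised CEBPD (0.77 ± 0.16; adjusted p = 0.00178), CEBPA (0.66 ± 0.16; adjusted p = 0.00762) and JUND (0.55 ± 0.16; adjusted p = 0.0349) and lowered FOSL2 (-0.69 ± 0.19; adjusted p = 0.0249), with a list median of 0.13. The interaction passed for CEBPD (1.33, adjusted p = 0.00276) and NFKBIA (1.10, adjusted p = 0.0413), although another NFKBIA probe set went the other way.

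Of 12 genes of AU-rich transcript decay and stability, 10 were tested, and with RA added to TNF 1 rose. This was ZFP36L1, which encodes a protein that binds AU-rich elements and promotes decay of their transcripts (2.20 ± 0.58; adjusted p = 0.0161 in limma). TIA1 (0.39 ± 0.19), KHSRP (-0.35 ± 0.21) and ZFP36L2 (-0.22 ± 0.16) did not pass. With TNF alone TNFAIP3 and ZFP36L1 rose and ZFP36L2 fell, although another ZFP36L2 probe set went the other way. TNFAIP3 was on this list but encodes an inhibitor of NF-kB signalling and not a factor of transcript decay. ZFP36L1 averaged 25.5 ± 23.7 units in vehicle wells at 40 h (SD, n = 6), below the array medians of those wells (27 to 45.2). With RA alone 0 of the 10 passed in limma, and 0 had an unadjusted p under 0.05.

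Of 18 other inflammatory cytokines of monocytes, 10 were tested. RA added to TNF raised 4, the chemokines CCL20 (6.17 ± 0.87), CCL2 (2.75 ± 0.39) and CCL4 (2.58 ± 0.53) and the cytokine IL1B (2.56 ± 0.25; adjusted p = 8e-09), and the TNF gene's own transcript fell by 2.29 on the log2 scale. The list median was 0.21. CCL20 averaged 12.5 ± 13.1 units in TNF wells (SD, n = 5), so its rise starts near the floor of the arrays, and CCL4 averaged 166 ± 71.6. In vehicle wells at 40 h these chemokines averaged 3.6 and 8.86 units. The interaction passed for IL1B (1.77 ± 0.35; adjusted p = 0.0151) and for no other gene of the list, and CXCL8 had a similar value that did not pass.

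Genes whose pattern over the 21 arrays at 40 h was most like that of 202859_x_at were taken by Pearson correlation, with the array set effect removed. They were LACC1 (r = 0.978), MPEG1 (0.969), G0S2 (0.966), IL1B (0.966), LYN (0.964) and IFNGR2 (0.963). With RA added to TNF they differed by 1.96, 1.63, 3.24, 2.56, 0.82 and 1.23 (log2). For CXCL1 they were B3GALNT1 (0.914), ACP2 (0.874) and ATP13A2 (0.867). These values describe arrays that share wells and treatments and were chosen as the highest of all probe sets.

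Genes of the monocyte and macrophage list also moved with each treatment at 40 h. With TNF alone CD14 (2.40 ± 0.45) and ITGAM (0.78 ± 0.17) rose and ELANE fell (-0.77 ± 0.14), of 7 tested (log2, SE, limma). With RA alone at 40 h CD14 (1.83 ± 0.45), CSF1R (0.67 ± 0.16) and ITGAM (1.19 ± 0.17) rose. CD14 averaged 29.4 ± 21.5 units in vehicle wells at 40 h (SD, n = 6), whose array medians ran from 27 to 45.2. Its rises over vehicle thus start near the floor of the arrays. In TNF wells CD14 averaged 114 ± 43.5 units (n = 5). In the time course 1 of 7 rose at 6 h (ITGAM, 0.67), and CSF1R and ITGAM rose at 16 h (0.64 and 1.05) and at 40 h (0.97 and 1.68). RA added to TNF raised CSF1R (1.45 ± 0.17; adjusted p = 2.4e-07 in limma) and CD14 (3.82 ± 0.47; adjusted p = 5.39e-07) and lowered ELANE, a granule enzyme of immature myeloid cells (-0.59 ± 0.14; adjusted p = 0.00732). This was 2 rises and 1 fall among 7 tested, and ITGAM did not pass (0.43 ± 0.17; adjusted p = 0.156). The summed signal of the 8 markers on the array ran from 14813 to 20580 units in vehicle wells at 40 h, from 13678 to 15359 in RA wells, from 9729 to 13310 units in TNF wells and from 9928 to 11850 in combined wells. ELANE was the largest part of this sum in each of these groups, with means of 13170, 10178, 7402 and 4693 units in the same order. By mean signal CD14, CSF1R, ITGAM and SPI1 were higher in combined than in vehicle wells, while LYZ, MPO and FCGR1A were lower, as ELANE was. The part of these shifts in the chemokine results was not tested.

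With RA added to TNF, 0 of the 8 tested markers of other cell types passed in limma, and 1, of the erythroid and megakaryocyte list, had an unadjusted p under 0.05. Neutrophil markers summed to 275 to 382 units in TNF wells and 282 to 478 in combined wells, mostly from CSF3R, with 5 of 6 dim. Lymphocyte markers summed to 413 to 619 and 400 to 519, erythroid and megakaryocyte markers to 207 to 341 and 216 to 357, and epithelial and fibroblast markers to 178 to 259 and 225 to 261. With TNF alone the lymphocyte marker NKG7 rose (1.09 ± 0.26; adjusted p = 0.0049 in limma), 1 of 2 tested, and lymphocyte markers summed to 231 to 527 units in vehicle wells at 40 h. The neutrophil marker CSF3R rose with RA in the time course at 6 h (0.60), 16 h (0.57) and 40 h (1.08), 1 of 2 tested. Neutrophil markers summed to 437 to 672 units in vehicle wells at 16 h and 646 to 773 in RA wells at 16 h. The part of these markers in the chemokine results was not tested.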

How the data were processed

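RNA from 33 wells of THP-1 cells was hybridised to 33 one-colour Affymetrix arrays. The deposited values are log2 signals relative to each array's median; GCOS made the signals, per the submitters' processing notes, with version and settings not given in the sources used here. That values are centred was read from the values themselves. Subtracting each array's lowest value and undoing the log2 recovered signals in multiples of 0.1 units (within 0.006 units for 100% of signals under 8) and a trimmed mean of 150 on every array. A change in all transcripts at once would not show after such scaling. Precision is limited by how many arrays each group had.

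The deposited log2 values were fitted without further normalization in limma 3.58.1 under R 4.3.3, with tables read by the data.table package, version 1.17.8. Probe sets with a mean linear value below the median of all (0.882 in the 40 h fit, 0.891 in the time course) were left out, which kept 27307, and 62 control probe sets were dropped. The 40 h fit used 21 arrays with array set as a covariate (16 residual degrees of freedom), and the time course 17 arrays of set 2 (12 residual degrees of freedom). lmFit and eBayes with an intensity trend were used, and calls were made at a Benjamini-Hochberg adjusted p under 0.05 over all probe sets. The script was checked on simulated data.

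Members and lists were chosen with earlier results of these data known. The text names all members, up to 4 genes per list with the smallest adjusted p in the combination against TNF or in the interaction, 6 genes most like CXCL8 and 3 most like CXCL1. Other list genes (among them RELB, REL, FOS, TNFAIP3 and the TNF gene, where not covered by that rule) were chosen after their values were seen. Alternatives were other normalizations, filters, a pseudocount, other references, array subsets and each array left out. Figures used matplotlib 3.10.9.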

Additional observations from a re-analysis of the deposited data

Results flagged for a closer look

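In 110 checks, of 10 member probe sets and CXCR2 in the 5 groups of 5 or 6 wells on the signal and log2 scales, 13 had a highest or lowest well whose gap to the nearest other well, divided by the range of the group, exceeded Dixon's critical value. That value is set so that chance exceeds it in about 1 in 20 groups of normally distributed values, which signals near the floor need not be. The scales of 1 group are not independent checks. Most of the 13 were on the signal scale, so their number is not read against that rate. All 13 were in dim probe sets, and CXCL8, CXCL1 and CXCR2 had none. For CXCL3 (207850_at) the high wells were RA well 3 at 86.7 units, TNF well 2 at 68.3 and combined well 3 at 60.6, by signal. For CXCL2 they were TNF well 1 at 27.1 units and vehicle well 3 at 16 h at 24.7 on 1569203_at, by signal. Vehicle well 5 at 16 h was high at 48.3 units on 209774_x_at by both scales and at 79.1 on 230101_at by signal. On 230101_at TNF well 2 was low, at 11.8 units, on the log2 scale. For CXCL5 they were TNF well 1 at 45.8 units on 207852_at and TNF well 2 at 30.3 on 215101_s_at, by signal, and vehicle well 4 at 16 h at 21.3 on 215101_s_at by both scales. Array quality of these wells was not tested as a cause.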

How the results depend on the processing

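Of 333 member values from other settings, 294 kept their direction and their side of the threshold, as did 316 of 345 when each array was left out in turn. These totals include 211506_s_at, whose differences from vehicle are a description only. The 7 that turned their sign passed in neither setting. For CXCL1 these were RA at 40 h in set 1 only (-0.14), and RA at 6 h on the recovered signal (-0.095) and without RA well 1 at 6 h (range -0.15 to 0.79). For 211506_s_at they were TNF by set with the pseudocount (-0.27) and quantile normalization (-0.27), and RA under TNF by set with quantile normalization (0.003) and the recovered signal (0.12). For CXCL8 on 202859_x_at the TNF effect, the combination against vehicle and the combination against TNF passed in each setting and without each array.

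For 202859_x_at the RA effect at 40 h passed with 1 probe set per gene (1.13), the filter at the 75th percentile (1.13), a pseudocount of 16 units (1.04), quantile normalization (1.11), the recovered signal (1.10) and array set 2 only (2.50). In 5 of the 11 settings it did not pass, with 0.12 in array set 1 only. It passed without RA wells 1, 2 or 3 or vehicle wells 1 or 2 (range 0.64 to 1.37). The interaction passed with 1 probe set per gene (2.02), the 75th percentile (2.02), the pseudocount (2.05), quantile normalization (1.92), the recovered signal (1.98) and set 1 only (2.85), and without RA well 5, combined well 5 or vehicle well 3 (range 1.77 to 2.51). In 5 of the 11 settings it did not pass, with 0.90 in set 2 only. The difference between array sets passed at the 75th percentile (2.38), without the filter (2.38), with the pseudocount (2.19) and on the recovered signal (2.15). At 6 h it passed with 1 probe set per gene (0.98), the 75th percentile (0.98), and without vehicle well 2 at 16 h (range 0.82 to 1.14).

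For 211506_s_at, again as a description, fitting no trend lost RA at 16 h (2.59), 40 h of the time course (3.34) and 40 h (2.23). Set 1 only lost the last (1.33). At 6 h it passed against the 40 h vehicle wells (2.57) and without vehicle well 2 at 16 h (range 1.99 to 2.96). Its interaction passed in set 1 (2.36) and with the pseudocount (2.12), and the combination against RA missed in set 2 (3.17). Leaving out an array lost the 16 h call without RA wells 1, 2 or 3 or vehicle wells 1, 3 or 4 (2.20 to 2.88) and the 40 h call of the time course without RA wells 4 or 5 (2.94 to 3.62). Where 1 array of an arm remained, it was assumed to vary like the other groups.

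CXCL1 in the combination against vehicle lost its call in set 1 (1.24), with no set covariate (1.61), no filter (1.65), no trend (1.65) and the recovered signal (1.54), and kept it, when an array was left out, only without vehicle well 3 (1.51 to 1.84). Against TNF it missed in set 1 (2.28). Replicate numbers did not pair the samples (r of -0.16 to 0.019 over 30 same-number pairs). With them as a block, CXCL1 in the combination against vehicle was 1.57 (adjusted p = 0.079), and no other call of a member changed.

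Counts over all probe sets moved by more than 1.5 times, to between 304 and 1478 for RA (main 780), 910 and 3656 for TNF (2126), 2099 and 2649 for the combination against vehicle (4067), 635 and 2650 against TNF (1659), 932 and 3972 against RA (2606), 8 and 253 for the interaction (68), 84 and 508 at 2 h (156), 682 and 2286 at 6 h (1353), 730 and 2411 at 16 h (1297), 1804 and 1887 at 40 h of the time course (958), 0 and 59 for RA by set (8; the 0, in limma with no trend, had 1614 at an unadjusted p under 0.05), 1 and 6 for TNF by set (0) and 1 and 57 for RA under TNF by set (0). The cause was not tested.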
